A study of Mus musculus with 2 samples.

Results

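Pi16, Dpp4, Dact2, Scara5, Wnt2, Pthlh, Stmn4 and Islr2 are 8 genes, of 27998 in the count tables, that earlier results of these data had grouped as genes of the fibroblasts around the tendon. They were found by symbol in both single-cell libraries. Their levels and their detection in the same cell were examined in Scx-low mesenchymal cells and set against Scx-high cells and all other cells. Scx encodes Scleraxis, the transcription factor that marks tendon cells. Scx-high cells had 30 or more Scx UMIs per 10000 UMIs of the cell. Scx-low mesenchymal cells were under that limit and had 5 or more UMIs summed over Ly6a, Cd34, Lum and Col3a1. A UMI, or unique molecular identifier, tags 1 captured mRNA molecule, so that its PCR copies are counted once. The members had been chosen by their levels and joint detection in these same cells, so both are given as a description, with no test.

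Each library came from the fore- and hindlimb tendons of 2 pooled pups at postnatal day 7. The library labelled mutant was from Tgfbr2 f/-;ScxCre pups, in which Cre under the control of Scx removes a floxed exon of Tgfbr2, the type II TGFβ receptor, from Scx-expressing cells. The control is labelled wild-type in its title and genotype, while its description reads Het. The names wild-type library and mutant library are used here after the titles. Mice carried the tendon reporter ScxGFP, so that Scx counts can include transgene transcripts, and the Ai14 RosaT Cre reporter. Each condition had 1 library, so no difference between the libraries has a replicate check, and condition cannot be told apart from batch. Intervals are exact 95% intervals that cover counting error only.

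The outer surface of a tendon is covered by the epitenon and paratenon, thin sheets of loose connective tissue that carry its blood vessels and nerves. Their fibroblasts are related to those of the adventitia, the outer coat of blood vessels. Pi16 and Dpp4 are widely used to mark adventitial fibroblasts in mouse tissues, a population that has been described as a reservoir for other fibroblasts. Cells were dissociated before sequencing, so the place of any cell in the tissue was not measured.

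The 8 genes lie on 5 chromosomes and are all protein-coding in GENCODE on GRCm38. Pi16 (ENSMUSG00000024011) spans chr17:29317680-29330593 on the plus strand and Dact2 (ENSMUSG00000048826) spans chr17:14195052-14204304 on the minus strand. Dpp4 (ENSMUSG00000035000) is at chr2:62330073-62412231, minus strand. On the plus strand of chromosome 14 are Scara5 (ENSMUSG00000022032) at chr14:65666403-65764826 and Stmn4 (ENSMUSG00000022044) at chr14:66344296-66361680. Wnt2 (ENSMUSG00000010797) at chr6:17988940-18030585 and Pthlh (ENSMUSG00000048776) at chr6:147252101-147264183 are on the minus strand. Islr2 (ENSMUSG00000051243), at chr9:58196297-58204319 on the minus strand, overlaps Islr on the same strand and the pseudogene 1600029O15Rik, so its counts are uncertain. An antisense gene overlaps each of Pi16, Dpp4 and Dact2.

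Promoter sequences were found in RefSeq for 6 of the 8 genes, as 8 windows on GRCm38.p6 because Islr2 has 3. Those of Pi16, Dpp4 and Pthlh are shown, each as the 250 bases before the RefSeq start, read along the gene. Pi16 is the gene for which the group is named, Dpp4 is the member whose levels in wild-type Scx-low and Scx-high cells had overlapping intervals, and Pthlh is the member that was higher in mutant Scx-high than in mutant Scx-low cells. Capitals mark GTCTG, the reverse complement of the Smad-binding letters CAGAC. The windows are chr17:29318632-29318881 (plus strand) for Pi16, chr2:62412232-62412481 (minus) for Dpp4 and chr6:147264014-147264263 (minus) for Pthlh.
Pi16: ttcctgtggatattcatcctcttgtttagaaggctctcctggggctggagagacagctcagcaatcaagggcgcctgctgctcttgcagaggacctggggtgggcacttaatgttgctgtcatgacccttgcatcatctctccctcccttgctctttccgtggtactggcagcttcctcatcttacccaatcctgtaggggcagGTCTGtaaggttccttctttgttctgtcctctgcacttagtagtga
Dpp4: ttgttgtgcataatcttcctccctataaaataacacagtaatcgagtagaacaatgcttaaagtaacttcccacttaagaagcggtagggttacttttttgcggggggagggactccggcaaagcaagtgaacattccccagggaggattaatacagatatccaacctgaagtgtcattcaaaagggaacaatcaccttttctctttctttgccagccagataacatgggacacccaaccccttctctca
Pthlh: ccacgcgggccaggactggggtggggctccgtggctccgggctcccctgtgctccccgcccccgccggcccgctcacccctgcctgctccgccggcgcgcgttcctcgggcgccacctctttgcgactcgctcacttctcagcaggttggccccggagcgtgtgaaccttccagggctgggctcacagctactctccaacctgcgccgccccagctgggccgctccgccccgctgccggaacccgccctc

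The Pi16 window holds CAGAC on the opposite strand, 46 bases before the start, and 1 of the 3 Islr2 windows holds it as well. Of all 32851 promoter windows of this length, 42.2% hold CAGAC on either strand. The longer palindromic Smad motif GTCTAGAC, held by 0.167% of all windows, and the E-box CACGTG, held by 6.02%, are in none of the 8 member windows. CTTTGA, the core of the TCF/LEF motif of Wnt signaling, is in 1 Islr2 window and in 13.8% of all windows. The searches covered both strands. GC content was 75.2% in the Pthlh window, 52.4% in that of Pi16 and 43.6% in that of Dpp4, against a median of 52.4% over all windows. Among the 3 genes shown, the RefSeq starts of Pi16 and Pthlh lie inside their GENCODE genes, so these windows overlap the genes. Such matches are a description of letters only.

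The wild-type library held 2364 cells and 9451606 UMIs, with 948 to 14358 UMIs per cell (median 3866.5). The mutant library held 2592 cells and 8250248 UMIs, with 903 to 15968 per cell (median 2828), and 2 barcodes occurred in both. Scx-low mesenchymal cells were 827 cells (35.0%) of the wild-type and 1897 cells (73.2%) of the mutant library, with median depths of 3760 and 2922 UMIs. Scx-high cells were 1178 (49.8%) and 235 (9.07%), with similar depths of 4285.5 and 4251 UMIs. The 359 and 460 other cells were mostly immune cells (179 and 181) and hemoglobin-rich cells (86 and 79), in which hemoglobin genes took over 50% of the UMIs. Tgfbr2 in Scx-low cells was at 65.0 CPM (UMIs of a gene per 1000000 UMIs of the class) in the wild-type and 72.9 CPM in the mutant library, a ratio of 1.12 (interval 0.951 to 1.33). Transcripts that lack the floxed exon keep their 3′ end, so these 3′ counts do not check the genotype labels.

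Pi16 was found in few of the cells just inside the limits of the Scx-low class. Wild-type cells just inside the Scx limit (20 to 30 per 10000) had Pi16 in 1 of 25 cells and those just outside (30 to 40) in 3 of 12 cells. For the mutant library these were 1 of 22 and 3 of 19 cells. At 5 or 6 UMIs of the 4 mesenchymal genes, Pi16 was found in 1 of 32 wild-type and 1 of 55 mutant cells, and at 3 or 4 such UMIs in 2 of 42 and 0 of 61 cells.

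Pi16 encodes peptidase inhibitor 16, a secreted or membrane-anchored protein of the CAP family. In the wild-type library Scx-low cells held 2211 Pi16 UMIs, or 665 CPM (interval 638 to 694), Scx-high cells 59 UMIs or 12.0 CPM (9.14 to 15.5) and other cells 7 UMIs or 5.77 CPM (2.32 to 11.9). Scx-low cells thus carried 97.1% of all Pi16 UMIs of that library, and the intervals of the lower classes overlapped. The mutant library had 1789 UMIs or 297 CPM (283 to 311) in Scx-low cells, 18 UMIs or 16.6 CPM (9.85 to 26.3) in Scx-high cells and 10 UMIs or 8.73 CPM (4.19 to 16.1) in other cells, which was the same order of classes, again with the last intervals overlapping. At least 1 Pi16 UMI was found in 323 wild-type Scx-low cells (39.1%, interval 35.7 to 42.5) and in 365 mutant Scx-low cells (19.2%, 17.5 to 21.1). These shares stood well above the background in cell types not expected to make it, which was 3 of 179 wild-type immune cells (1.68%, median depth 2372 UMIs), 7 of 181 mutant immune cells (3.87%, median 1638), 0 of 86 wild-type hemoglobin-rich cells, which allows up to 3.49%, and 1 of 79 mutant ones. The Scx-high shares of 2.72% and 3.83% were of the size of that background, although 6 and 4 of these cells held 2 or more Pi16 UMIs, with up to 14, while no other cell held more than 1. Single cells held up to 44 Pi16 UMIs in the wild-type library and 51 in the mutant one.

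Dpp4 (CD26) is a cell-surface peptidase that cleaves dipeptides from chemokines and hormones. It was the member that did not separate Scx-low from Scx-high cells in the wild-type library. Scx-low cells had 138 UMIs or 41.5 CPM (34.9 to 49.1), detected in 95 cells (11.5%), and Scx-high cells had 241 UMIs or 49.0 CPM (43.0 to 55.6), detected in 164 cells (13.9%). The ratio of Scx-low to Scx-high was 0.847 with an interval of 0.682 to 1.05, which includes 1. The mutant library had 42 UMIs or 6.97 CPM (5.03 to 9.43) in Scx-low and 4 UMIs or 3.69 CPM (1.01 to 9.46) in Scx-high cells. Thus Dpp4 was lower in the mutant library in both classes, with ratios to the wild-type library of 0.168 (0.116 to 0.239) in Scx-low and 0.0753 (0.020 to 0.195) in Scx-high cells. Other cells had 1 Dpp4 UMI in each library.

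Scara5 is a scavenger receptor of class A that takes up ferritin. Scx-low cells had 161 wild-type UMIs, or 48.4 CPM (41.2 to 56.5), in 106 cells (12.8%), and 154 mutant UMIs, or 25.6 CPM (21.7 to 29.9), in 103 cells (5.43%). Scx-high cells of the wild-type library had 2 UMIs and those of the mutant library 1 UMI, so that nearly all Scara5 transcripts of either library (97.0% and 96.2%) were in Scx-low cells. With these few counts the ratio of Scx-low to Scx-high was 119 (32.4 to 991) in the wild-type library and 27.7 (4.90 to 1101) in the mutant one.

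Wnt2 is a secreted Wnt ligand, and Dact2 binds Dishevelled inside the cell and dampens Wnt and TGFβ signaling. Wnt2 was at 36.1 CPM (29.9 to 43.2; 120 UMIs in 79 cells) in wild-type Scx-low cells and at 8.97 CPM (6.74 to 11.7; 54 UMIs in 36 cells) in mutant ones. Outside these cells a single Wnt2 UMI was counted, in a wild-type Scx-high cell. The Scx-low to Scx-high ratio was 177 (31.2 to 7067) in the wild-type library and at least 3.24 in the mutant library, taking 3 UMIs as the most that a count of 0 allows in the whole class. The exact interval of the mutant ratio, which also covers the counting error of the Scx-low UMIs, starts lower, at 2.54. Dact2 was at 33.1 CPM (27.2 to 39.9; 110 UMIs in 62 cells) in wild-type Scx-low cells, and 0 of 1178 Scx-high cells had a UMI, which allows a share of up to 0.255%. That made it at least 54.2-fold higher in wild-type Scx-low cells against the same 3 UMIs, and the exact interval of the ratio starts at 43.4. Mutant Scx-low cells had 19 Dact2 UMIs, 3.15 CPM (1.90 to 4.93), in 16 cells, and Scx-high cells 3 UMIs, so that the ratio in that library was 1.14 with an interval of 0.335 to 6.01.

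Pthlh encodes parathyroid hormone-related protein, a secreted peptide that holds back chondrocyte maturation in the growth plate and is made at some sites where tendon joins bone. Its pattern differed between the libraries. The wild-type library had 372 UMIs or 112 CPM (101 to 124) in Scx-low cells, detected in 105 cells (12.7%), and 6 UMIs or 1.22 CPM (0.448 to 2.66) in Scx-high cells. Mutant Scx-low cells had 124 UMIs or 20.6 CPM (17.1 to 24.5), detected in 61 cells (3.22%), while mutant Scx-high cells had 70 UMIs or 64.6 CPM (50.4 to 81.7), detected in 20 of 235 cells (8.51%). The order of the classes was therefore Scx-low above Scx-high in the wild-type library, at a ratio of 91.7 (41.7 to 251), and the opposite in the mutant library, at 0.319 (0.236 to 0.433). All 70 UMIs of mutant Scx-high cells were in cells with 60 or more Scx UMIs per 10000. The UMIs were unevenly spread over cells, with up to 58 in 1 wild-type Scx-low cell and 25 in 1 mutant Scx-high cell.

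Stmn4, a stathmin that destabilizes microtubules, and Islr2, a leucine-rich repeat membrane protein, are best known from neurons. Stmn4 was at 36.7 CPM (30.5 to 43.8; 122 UMIs in 71 cells) in wild-type and 6.81 CPM (4.89 to 9.24; 41 UMIs in 22 cells) in mutant Scx-low cells. Scx-high cells had 4 and 1 Stmn4 UMIs, and the Scx-low to Scx-high ratios were 45.1 (17.2 to 168) and 7.37 (1.25 to 298). Islr2 was at 27.1 CPM (21.8 to 33.3; 90 UMIs in 65 cells) and 2.99 CPM (1.77 to 4.72; 18 UMIs in 18 cells) in Scx-low cells of the wild-type and the mutant library, with 2 and 1 UMIs in Scx-high cells. Neither gene, nor Wnt2, had a UMI in 359 wild-type or 460 mutant other cells, which allows shares of up to 0.836% and 0.652%. The Dact2, Islr2 and Stmn4 shares of mutant Scx-low cells (0.843%, 0.949% and 1.16%) were below the 1.66% that 0 of 181 mutant immune cells allows and above the 0.652% that 0 of all 460 mutant other cells allows. Whether these low shares stood above background thus depended on the cells set against them.

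**Figure D1:**
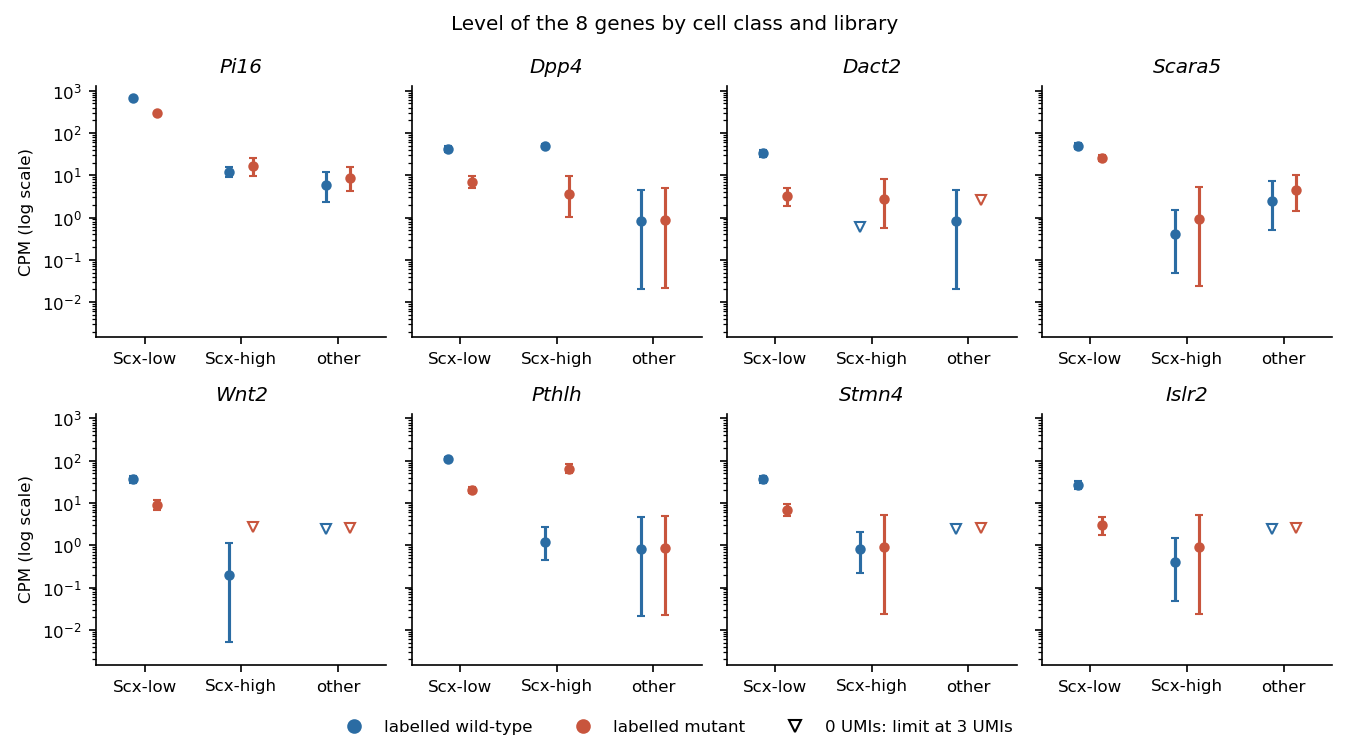
Level of each of the 8 genes in CPM on a log axis, by cell class (Scx-low mesenchymal, Scx-high, other), for the libraries labelled wild-type (blue) and mutant (red), with exact 95% Poisson intervals; open triangles mark 0 UMIs at the limit of 3 UMIs. Scx-low cells are the highest wild-type class for 7 genes, Dpp4 is as high in wild-type Scx-high cells, and Pthlh is higher in mutant Scx-high (64.6 CPM) than in mutant Scx-low cells (20.6 CPM).

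At a limit of 2-fold, 7 of the 8 genes were higher in Scx-low than in Scx-high cells of the wild-type library, all but Dpp4, where 22.2% of 10906 genes passed. Of the 7 genes with 20 or more UMIs over both classes of the mutant library, 4 passed (Pi16, Scara5, Wnt2 and Stmn4), against 15.1% of 10848 genes. Islr2 fell under that filter in the mutant library. The median log2 ratio of the members was 6.29 in the wild-type library, or 5.92 with Dact2 set at its bound, against 0.46 over all genes. In the mutant library it was 2.88, or 1.69 with Wnt2 at its bound, against 0.14. These contrasts chose the members, so the counts describe the choice. The plot of levels by class shows the tested genes that did not pass, Dpp4 in both libraries and Dact2 and Pthlh in the mutant one.

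Set against the wild-type library, all 8 genes were lower per UMI in mutant Scx-low cells, and 7 were at least 2-fold lower, where 6.43% of 11448 genes were. Their median log2 ratio was −2.44, against −0.03 over all genes. Dact2 had the lowest ratio, 0.0953 (0.055 to 0.156), followed by Islr2 at 0.110 (0.063 to 0.185), Dpp4 at 0.168, Pthlh at 0.184 (0.149 to 0.226) and Stmn4 at 0.185 (0.127 to 0.266). The intervals of these 5 neighbours in the order overlapped. Wnt2 stood at 0.248 (0.177 to 0.345), Pi16 at 0.447 (0.419 to 0.476) and Scara5, the member closest to 1, at 0.528 (0.421 to 0.663). Wild-type Scx-low cells were deeper, and after each cell was thinned to 1659 UMIs, shares of cells with a UMI still ran from 4.03% (Dact2 and Stmn4) to 32.5% (Pi16) in 770 wild-type cells and from 0.357% (Islr2) to 14.8% (Pi16) in 1682 mutant cells. Thinning left out 57 and 215 shallower cells.

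The composition of the Scx-low class differed between the libraries. By lineage tracing the paper found that ScxGFP-negative cells inside mutant tendons came from tenocytes. It proposes that cells keeping ScxGFP there were newly recruited. In wild-type tendons the paper stained Sca-1 and CD34, the products of Ly6a and Cd34, in the epitenon but not in tenocytes. Mutant tendon cells stained for both. Both genes help define the Scx-low class. For the single-cell libraries the scraping used to remove epitenon and paratenon cells was left out. Both Scx classes may therefore hold different kinds of cells in the 2 libraries, and the ratios need not describe a change within 1 kind of cell. The origin of the cells was not tested here. Scx-low cells with a Pi16 UMI made up 13.7% of all wild-type and 14.1% of all mutant cells, while Scx-low cells without one were 504 cells (21.3%) and 1532 cells (59.1%). Depth was not matched in these shares, with medians of 3866.5 and 2828 UMIs over all cells. Over all cells of each library the Pi16 ratio was nearer to 1, at 0.914 (0.859 to 0.973), and that of Scara5 was 1.10 (0.883 to 1.38), an interval that includes 1. The other 6 members remained below 1 over all cells, from 0.142 (0.102 to 0.192) for Dpp4 to 0.589 (0.493 to 0.702) for Pthlh, and 4 of the 8 were at least 2-fold lower, where 5.07% of 12671 genes were. The median log2 ratio was −1.18 on this scale, against 0.20 for all genes.

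Pi16-positive cells were therefore also compared with each other, 323 wild-type and 365 mutant cells with median depths of 4007 and 3159 UMIs. Pi16 itself was at 1656 CPM in the wild-type and 1405 CPM in the mutant cells, a ratio of 0.848 (0.796 to 0.903). Having a Pi16 UMI is what chose these cells, so this ratio is set in part by the choice and is no measure for the others. Of the 7 other members 6 were at least 2-fold lower, where 5.22% of 8488 genes were. Dact2 was at 65.9 against 9.42 CPM (ratio 0.143, 0.071 to 0.262), Islr2 at 46.4 against 8.64 CPM (0.186, 0.088 to 0.356) and Dpp4 at 68.2 against 21.2 CPM (0.311, 0.194 to 0.482). These 3 were the lowest of the 7 in this comparison, and their intervals overlapped. Pthlh was at 0.347 (0.251 to 0.474), Stmn4 at 0.391 (0.250 to 0.598), Wnt2 at 0.441 (0.297 to 0.645) and Scara5 at 0.659 (0.499 to 0.866). In cells with 3 or more Pi16 UMIs, 195 and 165 cells, the Pi16 ratio, again set in part by the choice of cells, was 1.04 (0.973 to 1.11). There Stmn4 at 0.737 (0.444 to 1.20), Scara5 at 0.690 (0.495 to 0.953) and Wnt2 at 0.651 (0.425 to 0.979) were less than 2-fold lower. Dpp4 at 0.398, Pthlh at 0.351, Islr2 at 0.278 and Dact2 at 0.159 were still at least 2-fold lower. The number of members past 2-fold thus depended on the Pi16 limit. The share of all genes at least 2-fold lower was not counted for cells with 3 or more Pi16 UMIs, so that number has no reference. In Scx-low cells without Pi16, Scara5 was the exception, at 21 wild-type and 66 mutant UMIs and a ratio of 1.32 (0.795 to 2.27).

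**Figure D2:**
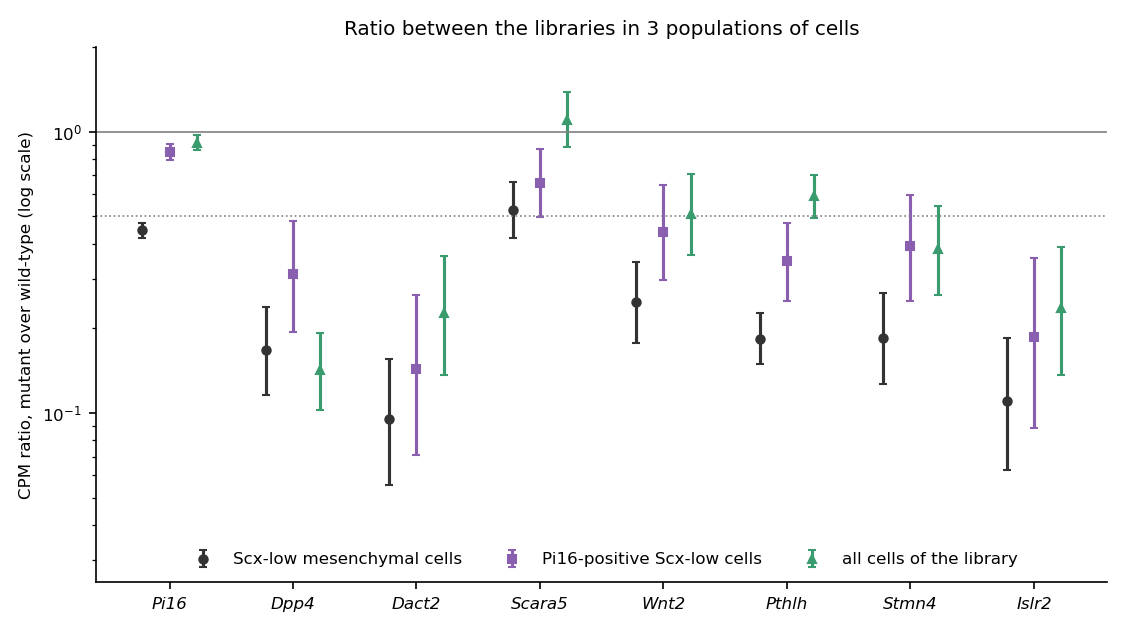
CPM ratio of the library labelled mutant over that labelled wild-type for the 8 genes on a log axis, in Scx-low mesenchymal cells (black), Pi16-positive Scx-low cells (purple) and all cells (green), with exact conditional 95% intervals; lines mark 1 and 0.5. Pi16 lies at 0.447 in Scx-low cells, 0.914 in all cells and 0.848 in the Pi16-positive cells that it chose, while Dpp4, Dact2, Stmn4 and Islr2 stay below 0.5 in all 3.

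The 8 genes were detected in the same cells more often than their separate shares would give. Each of the 28 pairs of members was detected together in more wild-type Scx-low cells than the product of the separate shares, by a median of 2.62 times. Of all pairs among the 4348 genes found in as many of these cells as the members (62 to 323), 76.6% were above the product, by a median of 1.15 times. For 27 of the 28 pairs the intervals of the share in cells with and without the other gene did not overlap, which held for 5.89% of all pairs. In the mutant library 27 of 28 pairs were above the product (median 4.50), with intervals apart in 16. Some of these mutant pairs rested on very few cells, such as Dact2 with Stmn4 (16.2 times the product, 3 cells) and Dact2 with Islr2 (6.59 times, 1 cell). Over 8789 genes found in 16 to 365 mutant cells, 63.3% of pairs were above the product (median 1.17) and 3.25% had intervals apart. Joint detection was among the values that chose the members, so nothing is read from these differences. Deeper cells show more of every gene, so the pairs were also counted in thinned cells, where 26 wild-type pairs were above the product (14 with intervals apart) and 20 mutant pairs (7 apart, with 6 pairs never seen together). In thinned cells 48.5% of all wild-type and 38.5% of all mutant pairs of genes in the members' range were above it. Of these pairs 0.594% and 0.548% had intervals apart, and 2.61% and 40.8% were never seen together. Cells of a library are not replicates, and these counts describe the cells sequenced.

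Dpp4 was found in 65 of 323 wild-type Pi16-positive cells (20.1%, interval 15.9 to 24.9) and in 5.95% (4.05 to 8.39) of Pi16-negative Scx-low cells. The mutant shares were 5.48% (20 of 365 cells) and 0.849%. As counted, Scara5 was closest to Pi16 in the wild-type library, with 26.9% of Pi16-positive and 3.77% of Pi16-negative cells, and 82.1% of its cells carried Pi16. In thinned wild-type cells Wnt2 was closer, at 2.58 times the product against 2.25 for Scara5, and 83.8% of Wnt2-positive against 73.1% of Scara5-positive cells carried Pi16. For mutant cells these Scara5 shares were 14.8% and 3.20%, and 52.4% of Scara5-positive cells carried Pi16. Wnt2 was in 18.9% and 3.57% of wild-type and in 7.12% and 0.653% of mutant Pi16-positive and Pi16-negative cells. The highest wild-type excess was that of Dact2 with Stmn4, found together in 25 cells where the product of shares gives 5.32.

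Pthlh was the member least tied to Pi16. It was in 15.5% (11.7 to 19.9) of wild-type Pi16-positive and 10.9% (8.33 to 14.0) of Pi16-negative Scx-low cells, the lowest excess of the 28 pairs at 1.22 times the product. In thinned cells no excess remained for Pi16 with Pthlh, at 0.994 (wild-type) and 0.913 (mutant) times the product, and the lowest wild-type pair was Scara5 with Pthlh at 0.955. Its CPM ratio between Pi16-positive and Pi16-negative cells was 1.20 (0.973 to 1.48) in the wild-type library and 2.97 (2.05 to 4.30) in the mutant one. For the other 4 members with 20 or more UMIs in each library these ratios ran from 2.88 (Dpp4) to 9.93 (Scara5) in wild-type and from 4.97 (Scara5) to 11.6 (Stmn4) in mutant cells.

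**Figure D3:**
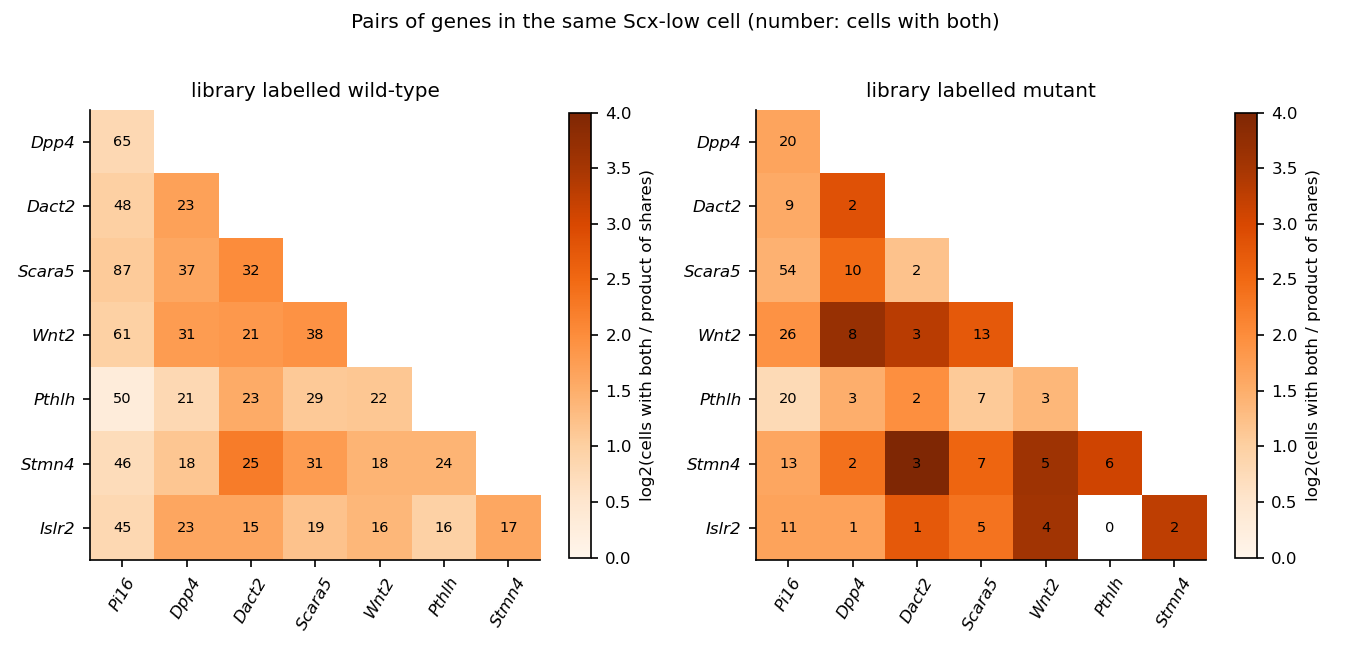
Pairs of the 8 genes among Scx-low mesenchymal cells of the library labelled wild-type (left) and mutant (right): the number in each square counts cells with both genes, and its color is log2 of that count over the product of the separate shares. Pi16 with Scara5 has the most cells (87 and 54), Pi16 with Pthlh is the palest wild-type square, and Pthlh with Islr2 was never seen together in the mutant library.

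At least 1 of the 8 genes was detected in 438 wild-type (53.0%) and 488 mutant (25.7%) Scx-low cells, and 3 or more in 130 (15.7%, interval 13.3 to 18.4) and 38 cells (2.00%, 1.42 to 2.74). After thinning the shares with 3 or more were 6.49% and 0.773%. A single wild-type cell had all 8 genes, and no mutant cell had more than 5. Among Scx-high cells 2 or more members were found in 7 of 1178 wild-type and 3 of 235 mutant cells, and no other cell had 2.

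**Figure D4:**
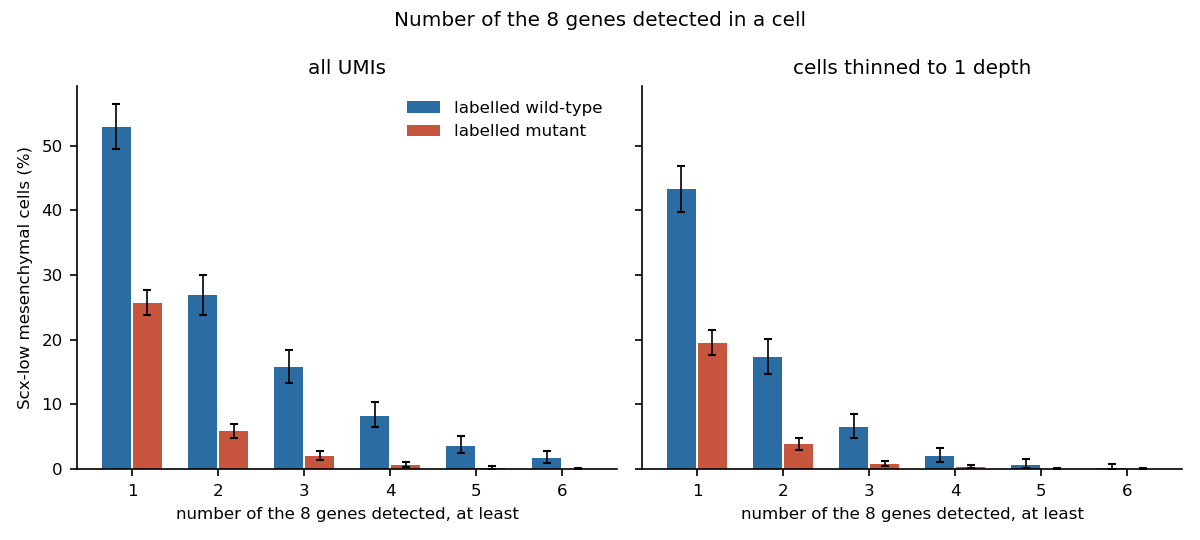
Percent of Scx-low mesenchymal cells with at least the given number of the 8 genes detected, in the library labelled wild-type (blue, 827 cells) and mutant (red, 1897 cells), from all UMIs (left) and after thinning each cell to 1659 UMIs (right); error bars are exact 95% binomial intervals. The wild-type bar is higher at 1 to 4 genes in both panels.

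Cells with several members had more Ly6a and Mfap5 and less Tnmd per UMI than cells with none. In wild-type Scx-low cells with 3 or more, 1 or 2, and none of the 8 genes, Ly6a (Sca-1, a surface antigen of many progenitor cells) was at 2460, 1387 and 340 CPM. Mutant cells gave 2856, 1386 and 686 CPM. Mfap5, a microfibril protein, followed the same order, at 7139, 3236 and 886 CPM in the wild-type and 6203, 2976 and 1085 CPM in the mutant library. Tnmd, the tendon membrane protein tenomodulin, ran the other way, at 135, 314 and 1981 CPM in wild-type and 130, 494 and 1232 CPM in mutant cells. Not all tenocyte genes followed Tnmd. Of 8 listed, 6 were at least 2-fold lower in Pi16-positive than in Pi16-negative cells of both libraries, where 1.67% of 9153 genes were, while Col1a1 was at 1.01 and 0.767 and Thbs4 at 0.366 and 0.956 times the level of Pi16-negative wild-type and mutant cells. Ly6a was itself used to define the class. Cd34 and Dpt followed the order of Ly6a in both libraries, but not every fibroblast gene did. Lum was at 2145, 3132 and 2629 CPM in mutant cells and Col3a1 at 9095, 9805 and 6445 CPM in wild-type cells. Pdgfra, a growth factor receptor, was at 70.6, 95.7 and 47.7 CPM in wild-type and 79.0, 89.4 and 69.3 CPM in mutant cells. Cells with 3 or more members were deeper than cells with none, with a wild-type median of 4391 against 3474 UMIs. Within the Scx-low class Pi16 was at 220 CPM in wild-type cells with 2 or more Tnmd UMIs and at 927 CPM in those with none, and at 57.6 and 490 CPM in mutant cells. Binned by Scx, wild-type Pi16 was level at 666, 700 and 671 CPM in cells with 0, under 5 and 5 to 15 Scx UMIs per 10000 and 322 CPM at 15 to 30, while mutant Pi16 went from 353 CPM in cells with no Scx UMI to 159, 110 and 13.7 CPM in the same bins.

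Of 9153 genes with 20 or more UMIs in the Scx-low class of each library, those most like Pi16 were ranked by the smaller of the 2 libraries' CPM ratios between Pi16-positive and Pi16-negative cells. The median gene had a ratio of 0.960 in the wild-type library and 0.996 in the mutant one, and 78 genes (0.852%) were at least 2-fold higher in both. Wnt2 ranked 4, Scara5 7, Stmn4 16, Dpp4 28 and Pthlh 755, while Dact2 and Islr2 had too few mutant UMIs to be ranked. First was Tek, the angiopoietin receptor better known from endothelial cells, with ratios of 7.70 (3.16 to 22.6) and 11.6 (5.52 to 26.4). Tmeff2, a membrane protein with EGF-like and follistatin domains, had 6.46 and 6.01, and Efemp1 (fibulin-3), an extracellular matrix protein, 9.02 and 5.99. Gap43, a growth-associated protein of axons, had the most UMIs of the 15 first genes (580 and 285 in Pi16-positive cells) and ratios of 4.17 and 4.81.

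The rest of the first 15 genes were of several kinds. Prdm8 (5.36 and 5.90) and Prdm6 (7.08 and 4.47) encode PR-domain chromatin regulators. Cell-surface receptors were Adgrd1, an adhesion G-protein-coupled receptor (5.13 and 4.18), and Ackr1, an atypical chemokine receptor (4.10 and 4.23). Pcolce2, which enhances procollagen cleavage (5.17 and 3.80), the cytokine Il18 (3.81 and 10.8), the sulfatase Arsi (3.45 and 3.48), the interferon-inducible Mnda (4.47 and 4.53) and the uncharacterized 1700019D03Rik (5.08 and 4.97) completed them. Pcolce2, which the paper marks as related to tendons, was not confined to Scx-low cells. In the wild-type library it was at 96.9 CPM in Scx-low and 380 CPM in Scx-high cells. Farthest from Pi16 were Bcam, P2rx1, Myh11, Tinagl1, Fabp4, Rarres1, Fbxl22, Gja4, Actg2 and Rasgrp2, whose larger ratio was at most 0.0956. Myh11 and Actg2 are genes of smooth muscle and Gja4 and Fabp4 of vessels. Myh11, for example, had 34 UMIs in Pi16-positive and 670 in Pi16-negative wild-type cells.

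**Figure D5:**
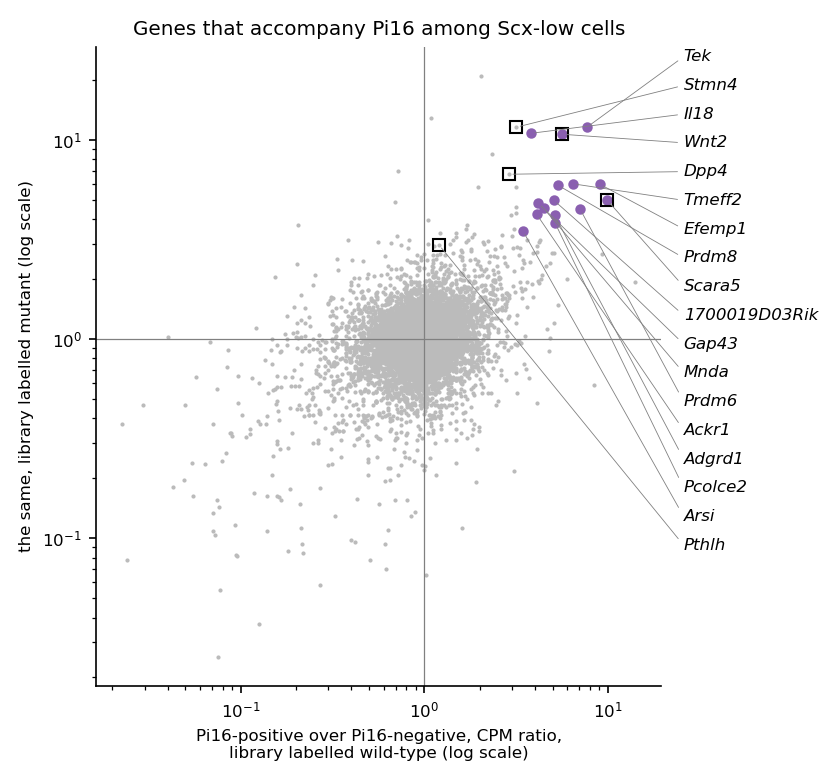
CPM ratio of Pi16-positive over Pi16-negative Scx-low cells for 9153 genes, in the library labelled wild-type (horizontal) and mutant (vertical), both on log axes; purple points are the 15 genes ranked most like Pi16 and open squares mark the members that could be ranked (genes at 0 in a set of cells are not drawn). Tek, Wnt2, Il18 and Stmn4 lie above 10 on the mutant axis, Scara5 and Efemp1 are the farthest right of the labelled genes, and Pthlh lies nearest to the wild-type line at 1.

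Lists of related genes show how far the members' pattern was shared. A list of 20 adventitial fibroblast genes had 10 of its 19 rankable members at least 2-fold higher in Pi16-positive cells of both libraries, where 0.852% of all 9153 ranked genes were. Of a list of 8 tendon sheath genes this held for 1, Thy1, with ratios of 3.06 and 2.86. The difference between these lists was not tested. Set against the wild-type library, 13 of the 20 adventitial genes were at least 2-fold lower in mutant Scx-low cells, where 6.43% of all genes were, and none was at least 2-fold higher, where 5.53% were. Their median log2 ratio was −1.22. Pcolce2, among these 13, was higher in Scx-high than in Scx-low cells of the wild-type library. Igfbp6, which binds IGF2, was at 1632 and 383 CPM, Clec3b (tetranectin) at 1539 and 690 CPM, Fbn1 (fibrillin-1) at 938 and 449 CPM, and Mfap5 at 2946 and 1734 CPM in the wild-type and the mutant library. Others of the list went the other way, with Penk (proenkephalin) at a ratio of 2.00 (1.77 to 2.27), just under the limit, and Dpt (dermatopontin) at 1.43 (1.35 to 1.53). For the sheath list 3 of 8 were at least 2-fold lower, against the same 6.43%, including Crip1 (10979 and 2736 CPM) and Tppp3 (1776 and 328 CPM), and none was at least 2-fold higher. The 4 genes that define the class were nearer to 1, with Ly6a at 0.825, Cd34 at 0.855, Col3a1 at 0.941 and Lum at 1.90.

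The relatives of each member mostly differed less between the libraries than the member did, with exceptions in the family of Pi16. Of all 11448 genes, 6.43% were at least 2-fold lower in mutant Scx-low cells and 5.53% at least 2-fold higher. Wnt ligands other than Wnt2 that were common in these cells had ratios of 0.543 (Wnt5a), 1.33 (Wnt5b), 1.12 (Wnt9a) and 1.04 (Wnt11), and of 7 with 20 or more UMIs those at least 2-fold lower were Wnt2 and Wnt4, the latter with 12 and 8 UMIs. Of 4 Wnt response genes with that many UMIs, Nkd1, a feedback inhibitor, was lower (0.396, 159 and 114 UMIs) and Lgr5, a receptor for R-spondins, higher (2.12, 18 and 69 UMIs). Dact1 was at 0.649 and Dact3 at 0.680. Stmn1, the stathmin of dividing cells, was at 1.09 and Stmn2 at 0.552. Islr, the overlapping neighbor of Islr2, was at 0.563. Fap, the peptidase closest to Dpp4, was at 0.977, and 1 of 7 genes of the Dpp4 family with 20 or more UMIs, Dpp4 itself, was at least 2-fold lower. Neither of the other class A scavenger receptors was lower (Scara3 1.50, Colec12 1.76). In the CAP family 3 of 5 genes with 20 or more UMIs, Pi16, Glipr2 (0.474) and Pi15 (0.310), were at least 2-fold lower, and Crispld2 (2.35) was at least 2-fold higher. On the log2 scale Pi15 (−1.69) and Crispld2 (1.24) differed more than Pi16 (−1.16), and Glipr2 (−1.08) and Crispld1 (0.64) less. Pth1r, the receptor of the Pthlh product, was detected at 21.1 CPM in wild-type and 31.5 CPM in mutant Scx-low cells, a ratio of 1.50. Of 4 genes of that pathway with 20 or more UMIs, Pthlh and Gli1 were at least 2-fold lower. Gli1 had only 18 and 15 UMIs, and its ratio was 0.460 (0.216 to 0.966).

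Markers of other cell types in the Scx-low class also differed between the libraries. Summed over each list, red blood cell genes were at 3793 CPM in wild-type and 1168 CPM in mutant cells, pericyte and smooth muscle genes at 854 and 198 CPM, Schwann and neural genes at 114 and 421 CPM, immune genes at 58.7 and 102 CPM and endothelial genes at 76.4 and 83.4 CPM. In the direction of the members, 5 of 5 red blood cell and 5 of 8 pericyte genes with 20 or more UMIs were at least 2-fold lower in mutant cells, as were 2 of 4 muscle and 1 of 8 endothelial genes, against none of 9 immune, 6 Schwann, 5 cartilage and 8 tenocyte genes, and 1 of 8 cycling genes. Over all 11448 genes 6.43% were at least 2-fold lower, and the counts of 1 or none in a list were near that share. In the other direction, 3 of 9 immune, 3 of 6 Schwann and 2 of 5 cartilage genes were at least 2-fold higher. So were 2 of 8 tenocyte genes (Thbs4 at 2.22 and Kera at 2.40), 2 of 8 endothelial and 1 of 4 muscle genes. This held for no red blood cell, pericyte or cycling gene, and for 5.53% of all genes. No epithelial gene of the 6 listed had 20 UMIs. Within the Pi16-positive cells pericyte genes were at 189 and 87.1 CPM and red blood cell genes at 5560 and 918 CPM. Without cells that had over 10% hemoglobin UMIs the Pi16 ratio was 0.446 and that of Scara5 0.530. Without cells that had 3 or more UMIs of the immune, endothelial, pericyte or Schwann lists the 8 ratios were lower, from 0.0765 (Dact2) to 0.444 (Scara5), with Pi16 at 0.384.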

How the data were processed

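Single-cell RNA was measured in 2 libraries of limb tendon cells from P7 pups, 1 labelled wild-type and 1 labelled mutant. The authors made 10x Genomics 3′ libraries, aligned reads to mm10 and deposited UMI counts per gene and cell, whole numbers without normalization. Their methods name Cell Ranger 2.0 and the submitters' processing notes Cell Ranger 1.2.0. All barcodes were used. Scrublet (through scanpy, expected rate 2%) marked 26 cells (1.10%) of the wild-type and 8 (0.309%) of the mutant library as doublets. They were kept.

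Counts were summed over the cells of a class and divided by the class total (CPM). CPM have exact Poisson intervals, ratios exact conditional and shares Clopper-Pearson intervals, at 95%. With 1 library per condition no test was run. Comparisons over all genes used those with 20 or more UMIs over the classes compared, or in each library for the ranking by Pi16. A count of 0 was taken to allow 3 UMIs. Other cells were named by the marker list with the most UMIs, at least 3. Thinned shares used 1659 UMIs per cell, the 10th percentile of Scx-low cells.

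The genes named are the 8 members, the 15 genes most and 10 least like Pi16, and up to 4 of the most abundant genes of each list. Glipr2, Pi15, Crispld2, Nkd1, Lgr5, Gli1, Wnt4, Thy1, Dact1 and Dact3 were named by their lists' counts, and Penk, Dpt and Pdgfra after their values were seen. Members and lists were chosen with earlier results of these data known. Alternatives were other Scx and mesenchymal limits, cell filters, thinning, other denominators, and classes from Tnmd and Fmod. Tested on simulated data of the Scx-low comparison with 11448 genes, 95.8% of intervals held the true ratio, and 100% of 50 genes had the right direction at each of the ratios 0.25, 0.5, 2 and 4. The simulated class sums were Poisson counts, the model that the intervals assume, so this coverage was set in advance. They held no uneven spread of UMIs over cells, so the result does not show how the intervals cover such a spread. Gene positions are from GENCODE M21 (GRCm38), and promoters from RefSeq (GRCm38.p6). Python 3.11.15, NumPy 2.4.6, SciPy 1.17.1, pandas 2.3.3, scanpy 1.11.5 and matplotlib 3.10.9 were used.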

Additional observations from a re-analysis of the deposited data

Results flagged for a closer look

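Pthlh, which encodes parathyroid hormone-related protein, differed between the libraries in opposite directions in the Scx-low mesenchymal and Scx-high classes. The CPM ratio of the mutant over the wild-type library was 0.184 (interval 0.149 to 0.226) in Scx-low mesenchymal cells and 53.0 (23.1 to 149) in Scx-high cells, where 6 wild-type UMIs stood against 70 mutant UMIs. Of the other members Dact2 had 3 mutant and 0 wild-type UMIs in Scx-high cells, and the exact interval of its ratio starts at 1.88. Scx-high ratios of Pi16 (1.38), Scara5 (2.27), Islr2 (2.27) and Stmn4 (1.13) were above 1 as well, with intervals that include 1. Dpp4 was below 1 (0.0753), and Wnt2 had 0 mutant UMIs and 1 wild-type UMI. Dact2, Scara5, Islr2, Stmn4 and Wnt2 each had under 20 Scx-high UMIs, too few for a firm ratio. With 1 library per condition the difference between the classes was not tested. The 70 mutant UMIs came from 20 of 235 Scx-high cells, and the part of the small number of cells in this value was not tested.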

How the results depend on the processing

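No paired analysis was possible because each condition had 1 library and no test was run. The main comparisons were recomputed under 13 other settings, and 4 more chosen after seeing the data. Of 82 values 70 were labelled unmoved, 12 moved and 0 reversed direction. Unmoved values stayed within their counting error. Counts of members were also labelled unmoved when near the reported count, so that 6 against 4 was unmoved. The share of wild-type Scx-low cells with Pi16 was 42.6% with at least 10 mesenchymal UMIs, 32.5% in thinned cells, 44.2% without cells carrying markers of other types and 43.4% with classes from Tnmd and Fmod. The mutant share was 14.8% in thinned cells. The Dpp4 share of Pi16-positive cells minus that of Pi16-negative cells was 7.31 and 2.11 percentage points in thinned wild-type and mutant cells, and 21.7 (wild-type) and 8.85 (mutant) with Pi16-positive set at 3 or more UMIs. The members' median log2 ratio between the libraries was −1.18 over all cells and −1.44 in Pi16-positive cells (−1.53 without Pi16, which chose them), and −2.70 to −1.18 over all settings. Of the members' single ratios between the libraries, 127 of 128 stayed below 1, and Scara5 was on the other side over all cells (1.10). The causes were not tested. The number of members 2-fold higher in Scx-low cells was 7 throughout in the wild-type and 2 to 6 in the mutant library, against 4 as reported. It was 2 in thinned mutant cells and 2 with a mean over cells of scaled counts, taking genes at 0 in Scx-high cells at 3 UMIs. In that library under 5 UMIs per gene in Scx-high cells, other than for Pi16 and Pthlh, limited the ratios.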

Other observations

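Genes that accompany Pthlh and Dpp4 were ranked in the same way as those that accompany Pi16. These genes, and the markers named with them, were picked with their values in view, and cells are not replicates. Pthlh-positive Scx-low cells were rich in Pcp4, a calmodulin-binding peptide (CPM ratio to Pthlh-negative cells of 33.4 in the wild-type library and 112 in the mutant one, from 33 and 28 UMIs in positive cells), Bglap2, an osteocalcin gene (17.4 and 18.1), F13a1, the A chain of coagulation factor XIII (10.1 and 43.0), and Hbegf, a ligand of the EGF receptor (15.5 and 9.06, from 582 and 100 UMIs). Pthlh-positive and Pthlh-negative wild-type Scx-low cells had the same Pi16 level within counting error (ratio 1.01, interval 0.90 to 1.13), while Tnmd was lower in the positive cells (0.14). In the mutant library these ratios were 0.57 for Pi16 and 0.83 for Tnmd. There, as counted, Pi16 and Pthlh were detected together in 1.70 times the cells given by the product of shares, and in thinned cells in 0.913 times. Pthlh was at 2.97 times its Pi16-negative level in mutant Pi16-positive cells. The relation of these genes in mutant cells thus depended on the measure.

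The 20 Pthlh-positive Scx-high cells of the mutant library, with a median of 8380 UMIs against 4080 in the other 215, had 2.35 times the Mfap5 level and 1.62 times the Acan (aggrecan) level of the other Scx-high cells. They had 0.28 times the level of Chad (chondroadherin), and no UMI of Pi16, against 18, or of the muscle regulator Myog, against 335, in the others. The Pi16 counts are few for 20 against 215 cells, and whether its level differed between them was not tested.

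The 164 Dpp4-positive Scx-high cells of the wild-type library, with a median of 4782.5 UMIs against 4194.5 in the other 1014, were close to the rest in tendon genes. The ratios were 1.12 for Scx, 0.86 for Tnmd and 1.19 for Fmod (fibromodulin), and Col3a1 was at 0.52. Their Pi16 ratio was 1.70 with an interval of 0.86 to 3.15. Among Scx-low cells Dpp4 went instead with Prdm8 (6.94 and 7.40) and Efemp1 (6.75 and 7.29), and Pi16 ranked 13 with 3.82 and 4.71. Prdm8 rested on only 12 and 5 UMIs in Dpp4-positive cells, against 138 and 39 for Efemp1. Immune genes ranked above Pi16 as well, with C1qb (5.02 and 5.92) at 3, Fcer1g (4.40 and 4.67) at 4 and C1qc (6.36 and 4.35) at 5. They rested on few UMIs in Dpp4-positive cells, such as 15 and 14 for C1qb, and how these transcripts came to be there was not tested.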
